A study of Homo sapiens with 6 samples.

Results

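The mitochondrial ribosomal protein genes are the nuclear genes whose symbols are MRPL or MRPS followed by a number and, in some, a letter. Probe sets listed with a single such symbol were taken as members, and the value of a gene was the mean of its probe sets. This gave 76 genes with 163 probe sets, of 18239 genes with 45253 single-symbol probe sets in all. Of the 76, 48 are MRPL genes and 28 are MRPS genes. The RNA came from LNCaP, a human prostate cancer cell line that responds to androgen, grown in F12 medium with serum. Cells were kept for 24 h with 40 µM urolithin A, a compound that gut bacteria make from dietary ellagitannins, or without it, and 3 Affymetrix Human Genome U219 arrays were hybridised per group. The sample titles call the second group untreated, whereas the treatment protocol names saline. Nothing in the labels states whether the 3 arrays of a group had a culture each, so the p-values reflect how these arrays scatter, possibly for technical reasons alone.

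Mitochondria carry their own ribosome, which translates the few proteins encoded in mitochondrial DNA, all of them subunits of the respiratory chain and ATP synthase. Its RNAs come from the mitochondrial genome, but each of its proteins is made in the cytosol from a nuclear gene and imported. Some of these proteins have a counterpart in bacterial ribosomes and others are found only in mitochondria. The L and S of the symbols stand for the large and the small subunit, with exceptions: MRPS18A and MRPS30 were found in the large subunit when its structure was solved.

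Each value gives, in log2 units, how far an array lay from the middle one of the 3 untreated arrays, and no level can be read from it. Whether a member was abundant, or whether a marker was absent, therefore cannot be said. In RNA from whole cultures, fewer cells of a type and less RNA per cell cannot be told apart. Of 20 measured markers of leukocytes, fibroblasts, endothelium and basal prostate cells, none passed in limma's fit (1 had an unadjusted p under 0.05), and of 6 measured markers of luminal prostate cells KLK2 and KLK3 fell. The others did not pass, with log2 changes of 0.20 for EPCAM, 0.13 for KRT8, 0.05 for HOXB13 and -0.07 for KRT18. The probe sets for 18S ribosomal RNA averaged 0.03, -0.22 and -0.48 in urolithin A replicates 1, 2 and 3, against 0.05, 0.02 and -0.45 in untreated replicates 1, 2 and 3. HLA-DRA, an antigen presentation gene, lay at -0.02, 1.17 and 3.09 in the urolithin A arrays, against 1.01, 0.03 and -0.02 in the untreated arrays.

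After urolithin A, 7 of the 76 genes changed, 6 of them lower and 1 higher, at an adjusted p under 0.05 in limma's fit over all 18239 genes. MRPS18A, MRPL30, MRPS12, MRPS35, MRPS30 and MRPS16 fell, by 1.38-fold at most, and MRPS14 rose 1.18-fold. The share of members called, 9.21%, was close to the 10.2% of all genes that passed, so the count by itself sets the members apart from nothing. Among all genes 5.31% were called lower and 4.85% higher. Of the 48 MRPL genes 1 fell, none rose and 47 did not pass (14 of the 48 had an unadjusted p under 0.05). Of the 28 MRPS genes 5 fell, 1 rose and 22 did not pass. With MRPS18A and MRPS30 placed by structure, the large subunit had 3 of 50 genes called, all lower, and the small subunit 4 of 26, of which 3 were lower. Whether the subunits differ in their share of calls was not tested.

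The promoters of the 7 genes that passed are shown because they are the members the results turn on. Each stretch holds the 150 bases before and the first 30 bases from the RefSeq transcription start, 5′ to 3′ on the gene's strand, in GRCh38.p14. Capitals mark a match to one of 4 motifs described after them.
MRPS18A, chr6:43687762-43687941, minus strand: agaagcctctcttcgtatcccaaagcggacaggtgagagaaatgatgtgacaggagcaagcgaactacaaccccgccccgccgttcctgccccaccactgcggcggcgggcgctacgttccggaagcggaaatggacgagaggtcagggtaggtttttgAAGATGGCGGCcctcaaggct
MRPS30, chr5:44808797-44808976, plus strand: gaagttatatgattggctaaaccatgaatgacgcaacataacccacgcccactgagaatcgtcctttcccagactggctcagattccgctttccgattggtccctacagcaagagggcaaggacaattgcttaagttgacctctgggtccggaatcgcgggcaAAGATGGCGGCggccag
MRPL30, chr2:99181034-99181213, plus strand: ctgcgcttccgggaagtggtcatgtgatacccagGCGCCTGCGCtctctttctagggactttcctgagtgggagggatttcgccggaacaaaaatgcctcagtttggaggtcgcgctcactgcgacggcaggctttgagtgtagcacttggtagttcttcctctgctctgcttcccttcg
MRPS12, chr19:38930794-38930973, plus strand: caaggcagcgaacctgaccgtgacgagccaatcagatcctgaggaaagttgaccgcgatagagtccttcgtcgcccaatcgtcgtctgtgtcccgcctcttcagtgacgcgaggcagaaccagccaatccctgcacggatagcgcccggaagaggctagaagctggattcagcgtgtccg
MRPS35, chr12:27710682-27710861, plus strand: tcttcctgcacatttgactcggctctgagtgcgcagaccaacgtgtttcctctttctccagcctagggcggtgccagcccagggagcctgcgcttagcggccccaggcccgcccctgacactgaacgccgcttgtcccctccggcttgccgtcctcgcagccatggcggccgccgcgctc
MRPS16, chr10:73252615-73252794, minus strand: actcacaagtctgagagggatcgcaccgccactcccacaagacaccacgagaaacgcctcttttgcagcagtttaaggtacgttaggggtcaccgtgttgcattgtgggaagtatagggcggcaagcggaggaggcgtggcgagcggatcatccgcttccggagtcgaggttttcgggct
MRPS14, chr1:175023396-175023575, minus strand: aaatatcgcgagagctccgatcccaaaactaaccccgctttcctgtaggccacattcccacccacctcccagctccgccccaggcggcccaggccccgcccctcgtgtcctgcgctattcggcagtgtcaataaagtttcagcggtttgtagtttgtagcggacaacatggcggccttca

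Promoters of 250 bases before to 50 after the start were found in the RefSeq table for 68 of the 76 members. They were searched on both strands for the NRF1 motif (bound by a regulator of nuclear genes for mitochondria), CCGGAAGT (bound by ETS factors, among them GABP), the YY1 motif (bound by a zinc finger factor) and CACGTG, the E-box bound by MYC and related factors. A match is a description of the sequence. The YY1 motif stood in 10 of the 68 members, or 14.7%, against 1.66% of the 14492 array genes with a promoter in the table. CCGGAAGT was in 16.2% of the members and 7.21% of all genes, the NRF1 motif in 13.2% and 10.1%, and the E-box in 13.2% and 10.9%. Among the 7 genes that passed, MRPS18A and MRPS30 hold the YY1 motif, at bases 10 to 20 and 14 to 24 counted from the start, and MRPL30 holds the NRF1 motif on the reverse strand, at -116 to -107 from the start. The promoters of MRPS12, MRPS35, MRPS16 and MRPS14 hold none of the 4 in this window. The NRF1 motif was searched as its core. Its longer form, with a leading T, was in 8.82% of members and 4.75% of all genes, and in none of the 7 that passed. The 10 members with the YY1 motif had a median log2 change of -0.09 and the 58 without it -0.07. For CCGGAAGT the medians were -0.06 in 11 members with it and -0.08 in 57 without, and for the NRF1 motif -0.02 in 9 and -0.08 in 59. The 9 members with an E-box had a median of 0.10 and the 59 without it -0.08, and no test was made of this difference.

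**Figure D1:**
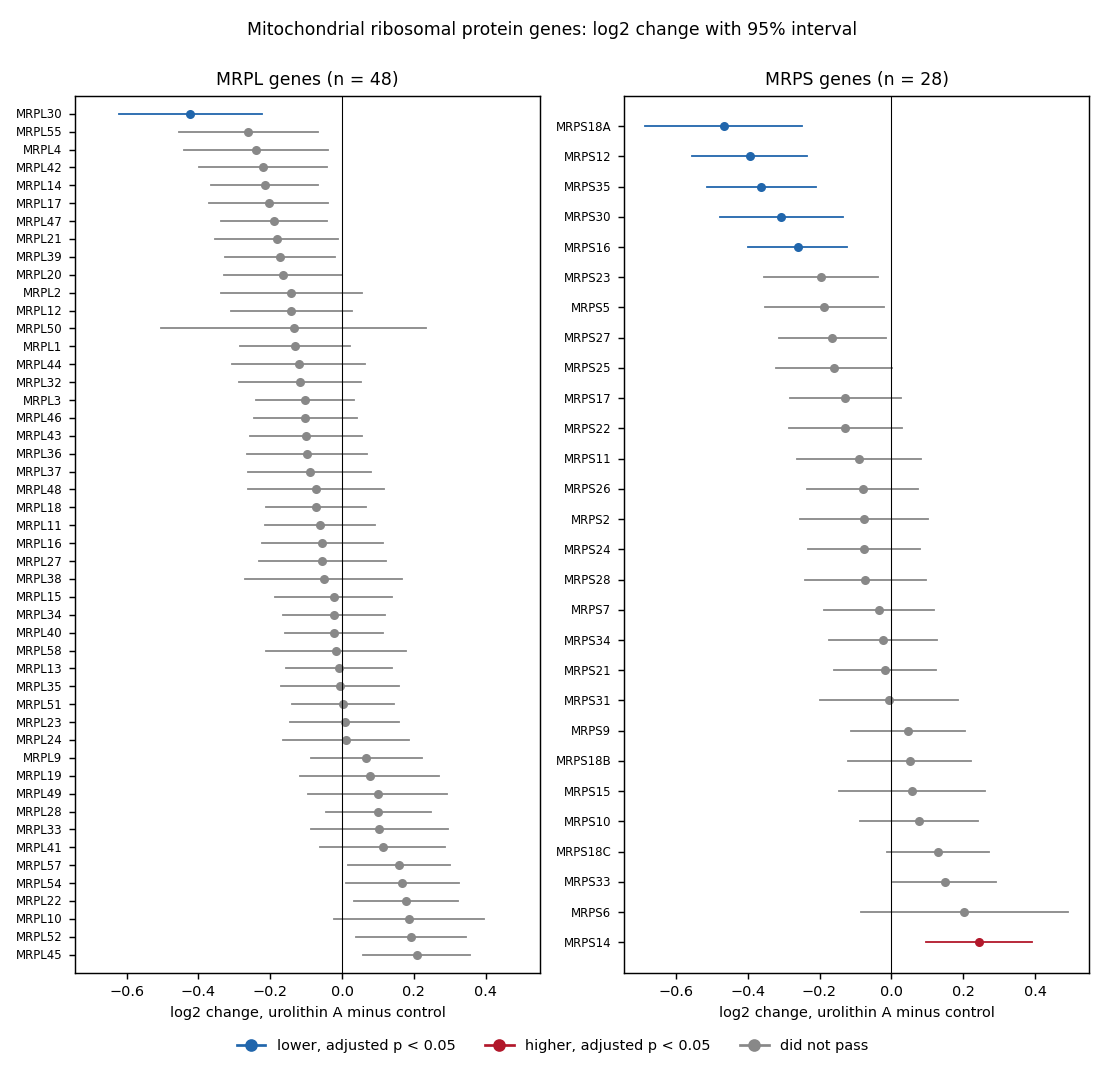
Log2 change (urolithin A minus untreated) of each of the 48 MRPL and 28 MRPS genes on the horizontal axis, with its 95% interval from limma as a bar, n = 3 arrays per group. Blue and red mark the 6 genes called lower and the 1 called higher, and most grey points lie left of 0.

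Of the proteins placed in the large subunit, MRPS18A had the furthest fall of all members. It is 1 of 3 human proteins named after the bacterial protein S18. MRPS18A lay at -0.42, -0.29 and -0.42 in urolithin A replicates 1, 2 and 3, against -0.02, 0.30 and 0.00 in untreated replicates 1, 2 and 3. All urolithin A arrays were below all untreated arrays, and untreated replicate 2 stood above the others. The log2 change was -0.47 (SE 0.10, adjusted p = 0.0182). Leaving out urolithin A replicate 1 ended the call (adjusted p = 0.0621), as did leaving out replicate 3 of that group (adjusted p = 0.0544). The others of that name belong to the small subunit and did not pass. MRPS18B had a log2 change of 0.05 (95% interval -0.12 to 0.22), with overlapping groups. Whether the 3 differ was not tested. MRPS18C had a log2 change of 0.13 (-0.01 to 0.27), at 0.15, 0.14 and 0.09 in the urolithin A arrays, against 0.02, 0.03 and -0.05 in the untreated arrays.

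MRPL30 and MRPS30 also fell. MRPL30, the counterpart of bacterial L30, lay at -0.42, -0.59 and -0.27 after urolithin A, against -0.04, -0.01 and 0.04 in untreated arrays. Its log2 change was -0.42 (SE 0.09, adjusted p = 0.019), the groups did not overlap, and the urolithin A arrays were spread more widely than the untreated ones. That call was kept in 1 of the 6 fits that each lack an array, the one without urolithin A replicate 3 (adjusted p = 0.0143), with adjusted p up to 0.0612 in the other 5. MRPS30, a protein without a bacterial counterpart, lay at -0.23, -0.23 and -0.40 in urolithin A arrays, against 0.00, 0.09 and -0.04 in untreated arrays. Its groups were apart, with urolithin A replicate 3 the lowest, and its log2 change was -0.31 (SE 0.08, adjusted p = 0.0373). Without any single array it did not pass (adjusted p = 0.0642 to 0.123).

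In the small subunit MRPS12, MRPS35 and MRPS16 fell and MRPS14 rose. MRPS12 is the counterpart of bacterial S12, which sits where codon and anticodon are read. It lay at -0.46, -0.29 and -0.45 in urolithin A arrays, against -0.03, 0.00 and 0.02 in untreated arrays. The groups did not overlap, and the urolithin A arrays were spread more widely than the untreated ones (SD 0.09 against 0.02). The log2 change was -0.39 (SE 0.07, adjusted p = 0.0106). MRPS35, found in mitochondria and not in bacteria, lay at -0.37, -0.39 and -0.33 in urolithin A arrays, against 0.07, -0.07 and 0.00 in untreated arrays. Its urolithin A arrays were close together and wholly below the untreated ones, and its log2 change was -0.36 (SE 0.07, adjusted p = 0.0121). These 2 genes passed in all 6 fits without a single array, with adjusted p up to 0.0405 for MRPS12 and 0.0465 for MRPS35. Neither passed with 2 arrays a group, as both were lost without urolithin A replicate 3 and untreated replicate 1 (adjusted p = 0.083 and 0.0821) and without replicate 3 of both groups (adjusted p = 0.083 and 0.0678).

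MRPS16, the counterpart of bacterial S16, had the smallest fall that passed. It lay at -0.26, -0.32 and -0.26 in urolithin A arrays, against -0.01, -0.03 and -0.03 in untreated arrays. Both groups were tight, and the log2 change was -0.26 (SE 0.06, adjusted p = 0.0298). The call ended without any single array (adjusted p = 0.067 to 0.0935) and without probe sets marked for shared sequence (adjusted p = 0.0512), where the log2 change was -0.27. MRPS14, the counterpart of bacterial S14, lay at 0.26, 0.22 and 0.22 in urolithin A arrays, against 0.02, 0.03 and -0.08 in untreated arrays. It was the only member to pass upwards, with a log2 change of 0.24 (SE 0.06, adjusted p = 0.0493). It passed under none of 17 other settings (adjusted p from 0.0493, where a stricter threshold or a 1.2-fold change was asked for, to 0.554).

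**Figure D2:**
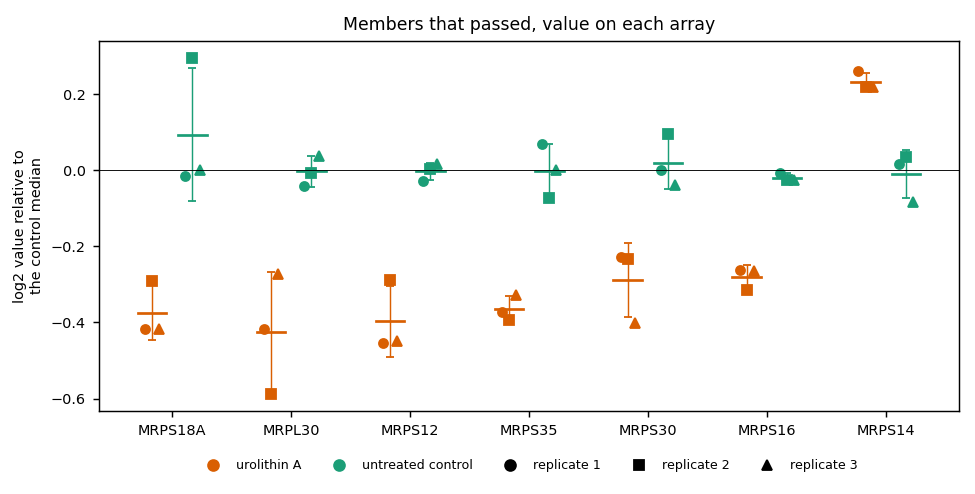
Log2 value relative to the control median on each array for the 7 members that passed, urolithin A (orange) left of untreated (green); marker shapes are replicates, horizontal lines the group means and bars the SD (n = 3). In all 7 genes the 3 urolithin A arrays lie wholly outside the range of the untreated arrays. These genes were picked by a test on the same values, which favours such separation. Over all genes the groups did not overlap in 29.3%.

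Taken over all 76, the 7 that passed included, the members leaned slightly downwards. The median log2 change was -0.07 over the 76 members, -0.06 over the MRPL genes and -0.08 over the MRPS genes, against 0.01 over all genes. The mean change was negative in 53 of 76 members, or 69.7%, against 46.9% of all genes. The member median was -0.05, -0.02 and -0.10 in urolithin A replicates 1, 2 and 3, against 0.00 in each untreated array. Untreated medians are drawn towards 0, since values are relative to the middle untreated array, but are not fixed there. Among MRPL genes the lean was hardly seen in urolithin A replicate 2, with a median of -0.0055 and 24 of 48 below 0. Untreated replicate 2 had -0.0011 and 25 of 48. Urolithin A replicate 3, with the lowest member median, also had the lowest 18S ribosomal RNA. Untreated replicate 3 had a similar 18S value, with a member median of 0.00 and 34 of 76 members below 0. Untreated replicate 2, with an 18S value of 0.02, had 35 of 76 below 0. The scale draws both medians towards 0, which limits this comparison. The part of RNA quality in the lean was not tested. The groups did not overlap in 35 of 76 members, 25 lower and 10 higher, or 46.1%. Over all genes the groups did not overlap in 29.3%, with 13.7% lower and 15.6% higher. The residual SD between arrays was also smaller in the members, with a median of 0.07 against 0.10 over all genes, and its part in that count was not tested.

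Large changes were few among the members. Their log2 changes ran from -0.47 to 0.24, while those of all genes, a far larger set, ran from -3.56 to 2.48. The median size of the log2 change, whatever its direction, was 0.11 in the members and 0.10 over all genes. A change of at least 1.2-fold in either direction was seen in 5 of 76 members, or 6.58%, and in 15.2% of all genes. For the 69 members that did not pass, the 95% interval of the log2 change reached a median of 0.16 to either side. All 69 intervals lay within a 1.5-fold change in either direction, and 32 lay within a 1.2-fold change. They are intervals of gene means and do not bound single probe sets. One probe set of MRPL52 had a log2 change of 0.92 and one of MRPS11 -0.79, and both genes are among the 69. A miss of the threshold does not show that a gene was unaffected, and the intervals of 17 of the 69 excluded 0.

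**Figure D3:**
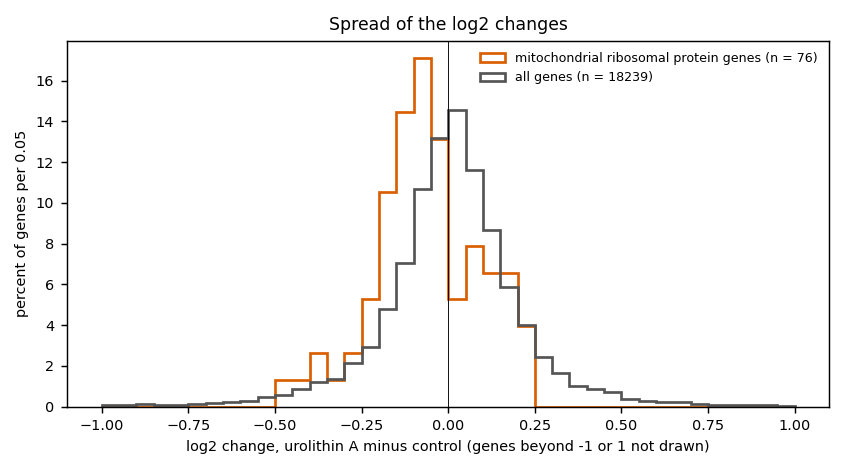
Percent of genes per bin of 0.05 in log2 change (urolithin A minus untreated), for the 76 members (orange) and all 18239 genes (grey). The member curve is narrower in its tails and its peak lies left of 0, with medians of -0.07 and 0.01.

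By structure, the large subunit held members that leaned either way. Among the 30 MRPL genes with a bacterial counterpart 1 fell and 29 missed the threshold (median -0.07), and among the 18 found only in mitochondria none passed (6 had an unadjusted p under 0.05), with a median of -0.04. MRPL55, the counterpart of bacterial L31, and MRPL4 had the lowest changes of those that did not pass. MRPL55 lay at -0.35, -0.11 and -0.17 in urolithin A arrays, against 0.00, 0.16 and 0.00 in untreated arrays, a log2 change of -0.26 (adjusted p = 0.0979). MRPL4, the counterpart of bacterial L4, which lines the tunnel that the new protein leaves by, lay at -0.25, -0.06 and -0.35, against 0.10, -0.02 and -0.02 in untreated arrays. Its log2 change of -0.24 (adjusted p = 0.133) passed when the median of its probe sets was taken (adjusted p = 0.045). In both genes the groups were apart, and urolithin A replicate 2 stood nearest to the untreated arrays.

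At the other end stood MRPL45 and MRPL52. MRPL45, which anchors the ribosome to the inner membrane at the tunnel exit, lay at 0.11, 0.20 and 0.24 in urolithin A arrays, against 0.00, -0.03 and -0.05 in untreated arrays. All 3 urolithin A arrays were above the untreated ones, but the log2 change of 0.21 did not pass (adjusted p = 0.0874). Both of its probe sets carry the _s_ mark of Affymetrix for sequence shared between transcripts, so no unmarked value exists for it here. The list of 6 measured genes for proteins around the exit tunnel left out MRPL4, at a log2 change of -0.24. MRPL4 had an unadjusted p under 0.05 in limma's fit. Of the 6 listed, none passed and 3 had an unadjusted p under 0.05. These were MRPL45, MRPL22 at a log2 change of 0.18 and MRPL39 at -0.17. The stalk that recruits translation factors was represented by MRPL10, MRPL11 and MRPL12, at log2 changes of 0.19, -0.06 and -0.14 (adjusted p = 0.263, 0.647 and 0.296). The 2 probe sets of MRPL11 had opposite signs, at 0.16 and -0.28, and neither passed alone. MRPL10 lay at 0.05, 0.12 and 0.37 in urolithin A arrays, against 0.00, -0.05 and 0.04 in untreated arrays, so its mean rests largely on urolithin A replicate 3. Of 7 genes for the central protuberance, where the subunits meet above the tRNAs, none passed (1 had an unadjusted p under 0.05), and the median was -0.05. MRPL58, a peptidyl-tRNA hydrolase built into the large subunit, had a log2 change of -0.02 (95% interval -0.21 to 0.18).

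In the small subunit, 2 of 16 genes with a bacterial counterpart fell, 1 rose and 13 missed the threshold (median -0.05). Of 10 genes found only in mitochondria, 1 fell and 9 missed it (median -0.10). These classes hold few genes, and among all genes 10.2% were called, 5.31% lower and 4.85% higher. MRPS23 and MRPS5 were the lowest of those that did not pass. MRPS23 lay at -0.14, -0.18 and -0.23 in urolithin A arrays, against 0.00, 0.10 and -0.06 in untreated arrays, a log2 change of -0.20 (adjusted p = 0.126). MRPS5, the counterpart of bacterial S5, which affects the accuracy of decoding, lay at -0.21, -0.19 and -0.15 in urolithin A arrays, against -0.04, -0.08 and 0.12 in untreated arrays (adjusted p = 0.157). Neither pair of groups overlapped. MRPS6 had a log2 change of 0.20, which came from 1 array, as it lay at 0.46, 0.04 and 0.04 in urolithin A arrays, against 0.00, 0.11 and -0.18 in untreated arrays (adjusted p = 0.386). Without urolithin A replicate 1 its change was 0.06. MRPS33 lay at 0.20, 0.12 and 0.10 in urolithin A arrays, against -0.04, 0.00 and 0.01 in untreated arrays, with groups apart and adjusted p = 0.191.

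Several members gave different answers by probe set. A gene was measured by 1 probe set in 31 members and by more in 45. In 30 of these 45 all probe sets had log2 changes of one sign, in 15 they were mixed, and the median distance between the highest and lowest was 0.19. Tested alone, 13 of 163 member probe sets passed, 9 lower and 4 higher, in 11 genes. That is 7.98%, against 8.41% of all probe sets, with 4.4% lower and 4.01% higher.

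MRPS11, the counterpart of bacterial S11, had a gene mean of -0.09 that hid opposite changes. One of its 6 probe sets lay at -0.77, -0.88 and -0.82 in urolithin A arrays, against 0.34, -0.45 and 0.00 in untreated arrays, a log2 change of -0.79 (adjusted p = 0.0278 over all probe sets). Another lay at 0.73, 0.65 and 0.48, against 0.30, 0.00 and 0.00 in untreated arrays, a log2 change of 0.52 (adjusted p = 0.027). The other 4 ranged from -0.19 to 0.06 and did not pass.

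MRPL52, a protein of the central protuberance, had a log2 change of 0.19 (adjusted p = 0.118) that came from 1 of 5 probe sets. That probe set lay at 1.14, 0.91 and 0.75 in urolithin A arrays, against -0.01, 0.00 and 0.04 in untreated arrays, a log2 change of 0.92 (adjusted p = 0.00197). The other 4 lay between -0.03 and 0.03. That probe set and 2 of the others carry the _x_ mark of Affymetrix for sequence that may match other transcripts, and without marked probe sets the gene's change was 0.00.

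The call of MRPS14 rested on a single probe set in the same way. It lay at 0.62, 0.53 and 0.55 in urolithin A arrays, against 0.00, 0.25 and -0.25 in untreated arrays, a log2 change of 0.56 (adjusted p = 0.0297), and carries the _s_ mark of shared sequence. The other 2 had changes of 0.11 and 0.06, and the gene's change without the marked probe set was 0.08.

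Among the genes that fell, the probe sets had one sign, as in 30 of all 45 members with more than 1. Those genes were called on the mean of the same probe sets, which favours this. All 4 of MRPS12 were lower, between -0.62 and -0.17, and 2 passed alone. All 3 of MRPL30 were lower, between -0.54 and -0.35, both of MRPS18A at -0.54 and -0.40, and both of MRPS35 at -0.47 and -0.26, with 1 probe set of each gene passing alone. The 3 probe sets of MRPS16 lay between -0.27 and -0.24 and none passed alone, although each had an unadjusted p under 0.05. The only probe set of MRPS30 did not pass in that test (adjusted p = 0.076). MRPL50 had a mean of -0.14, while 1 of its 2 probe sets passed at -0.38 (adjusted p = 0.0448) and the other varied from 0.07 to 0.81 in urolithin A arrays and from -0.29 to 0.99 in untreated arrays.

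**Figure D4:**
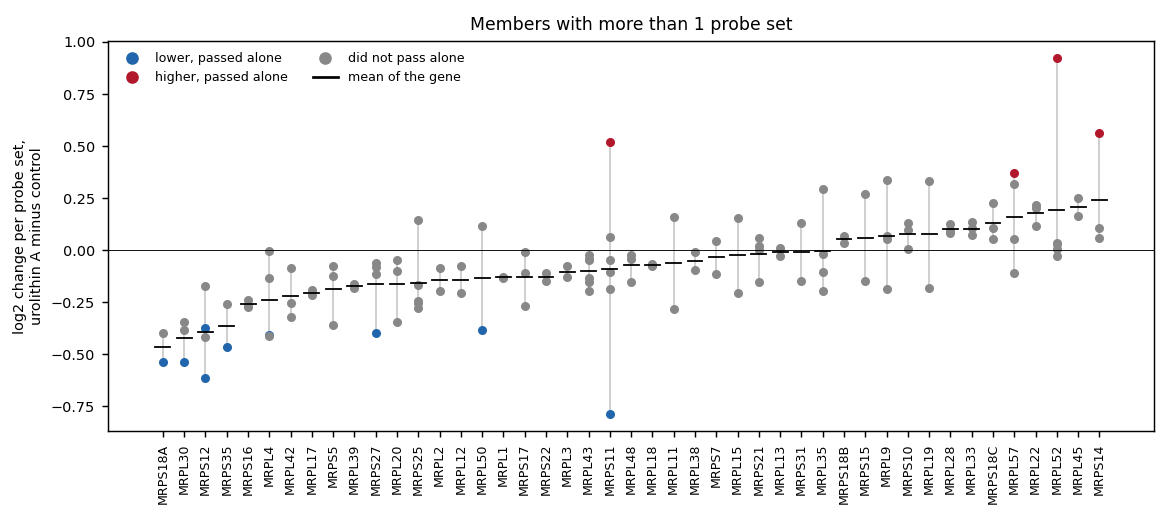
Log2 change (urolithin A minus untreated) of every probe set of the 45 members with more than 1, ordered by the gene mean (black dash); blue and red mark probe sets that passed alone. MRPS11 spans -0.79 to 0.52, and single probe sets of MRPL52 and MRPS14 stand far above the others of their gene.

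The rest of the machinery of mitochondrial gene expression moved in single genes. Over 7 lists with 107 measured genes, 11 fell, 2 rose and 94 did not pass, and the median was -0.06. The share called, 12.1%, was near the 10.2% of all genes. Of the genes called, RBFA, YARS2, GATC, POLG, PRORP, TFB2M and PPRC1 were measured by 1 probe set each. Of the 4 measured mitoribosomal proteins with other names, none passed (2 had an unadjusted p under 0.05): DAP3 and GADD45GIP1 had log2 changes of -0.19 each, PTCD3 -0.11 and CHCHD1 -0.06. Of 26 factors that assemble the mitoribosome, RBFA, which binds the small subunit RNA, fell and GRSF1, an RNA granule protein, rose. RBFA lay at -0.34, -0.35 and -0.31 in urolithin A arrays, against 0.00, -0.05 and 0.04 in untreated arrays (adjusted p = 0.0137). GRSF1 had a log2 change of 0.27 (adjusted p = 0.0318) and kept its call in 1 of 6 fits without an array (adjusted p up to 0.0965), while probe sets without a mark of shared sequence gave 0.18 (adjusted p = 0.154).

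Of 16 translation factors of the organelle, 1 rose, 1 fell and 14 did not pass, so 12.5% were called against 10.2% of all genes. TSFM, the exchange factor of the elongation factor TUFM, had the furthest rise over the 7 lists. It lay at 0.63, 0.58 and 0.44 in urolithin A arrays, against -0.01, 0.01 and -0.02 in untreated arrays, a log2 change of 0.56 (SE 0.07, adjusted p = 0.00252). TUFM itself did not pass, at 0.14 (adjusted p = 0.29). GFM1, the elongation factor that moves the ribosome along, fell by 0.34 on the log2 scale (adjusted p = 0.0326), a call kept in 2 of 6 fits without an array (adjusted p up to 0.101), and by 0.61 without probe sets marked for shared sequence. Of 19 genes that charge mitochondrial tRNAs, 2 fell, or 10.5%, against 5.31% of all genes called lower. YARS2, the tyrosine enzyme, fell by 0.31 and GATC, part of the glutamine pathway, by 0.41. Each was kept in 4 of the 6 fits without an array, with adjusted p up to 0.0563 and 0.0676.

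Genes that copy and transcribe mitochondrial DNA included the deepest fall of the 7 lists. Of 18 measured, 4 fell, or 22.2%, and 14 missed the threshold (median -0.08). Among all genes 5.31% were called lower, and the share in this small list was not tested. POLG, the catalytic subunit of the mitochondrial DNA polymerase, lay at -0.97, -0.60 and -0.69 in urolithin A arrays, against -0.19, 0.06 and 0.00 in untreated arrays (log2 change -0.71, SE 0.11, adjusted p = 0.00608). TFAM, which packs that DNA and starts its transcription, lay at -0.31, -0.38 and -0.38, against -0.07, 0.06 and 0.02 in untreated arrays (log2 change -0.36, adjusted p = 0.0116). Both passed in all 6 fits without an array. PRORP, a nuclease of mitochondrial tRNA ends, fell by 0.31 and TFB2M, a transcription factor of the organelle, by 0.27. PRORP was kept in 3 and TFB2M in 0 of the 6 such fits (adjusted p up to 0.0598 and 0.0922). The RNA polymerase gene POLRMT had a log2 change of 0.01 (adjusted p = 0.951).

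Of 10 regulators of mitochondrial biogenesis, 2 fell, or 20%, and 8 did not pass. Among all genes 5.31% were called lower, and the share in this short list was not tested. GABPB1, the partner subunit of the ETS factor GABPA, fell by 0.54 (SE 0.08, adjusted p = 0.00428), and PPRC1, a coactivator related to PGC-1, fell by 0.40 (adjusted p = 0.0207). GABPB1 passed in all 6 fits without an array and PPRC1 in 2, with adjusted p up to 0.0757. GABPA had a log2 change of -0.26 (adjusted p = 0.0545), NRF1 one of -0.06 (adjusted p = 0.635) and YY1 one of 0.11 (adjusted p = 0.364). Among 14 chaperones, proteases and stress genes of mitochondria only HSPE1, the co-chaperonin, passed, with a fall of 0.25 (adjusted p = 0.0478) that was kept in none of the 6 such fits (adjusted p = 0.0607 to 0.13). Without probe sets marked for shared sequence its log2 change was -0.48.

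**Figure D5:**
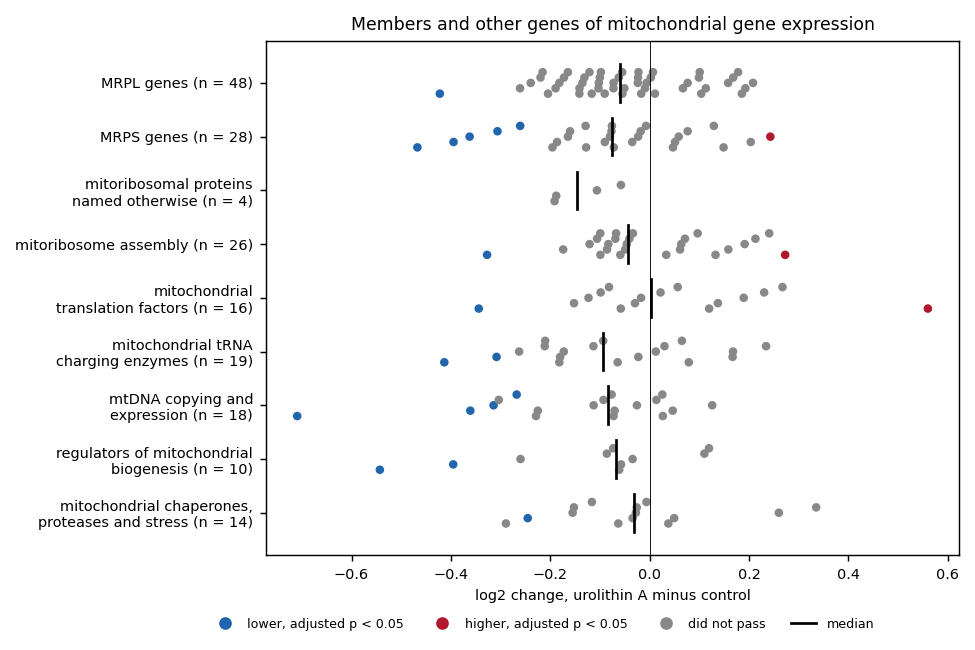
Log2 change (urolithin A minus untreated) of each gene on the horizontal axis for MRPL and MRPS genes and 7 lists of other genes of mitochondrial gene expression, with the list median as a black line. Medians lie between -0.15 and 0.00, and POLG at -0.71 and TSFM at 0.56 are the outermost genes.

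Set beside the ribosomal protein genes of the cytosol, the members lay lower. Of 71 measured cytosolic ones 5 rose, none fell and 66 did not pass, so 7.04% were called against 10.2% of all genes. Their median log2 change was 0.02 with 22.5% below 0, where the members had a median of -0.07 with 69.7% below 0. Over all genes the median was 0.01 with 46.9% below 0. Of 36 measured subunits of respiratory complex I with NDUF symbols, 3 fell, or 8.33%, against 5.31% of all genes called lower. Another 33 missed the threshold, and the list median was 0.00. These differences between lists were not tested.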

How the data were processed

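Each of 6 Affymetrix U219 arrays measured RNA of LNCaP cells. RMA made the deposited log2 values, per the submitters' processing notes (no version); the base of the logarithm is taken from RMA. The 3 untreated arrays have a median of 0 at each of 49386 probe sets, so values are relative to it. Probe sets with 1 gene symbol in the platform annotation were averaged per gene (1327 with several symbols, 5 of them with a member symbol, 2713 with none and 93 control probe sets were left out; no filter on low values was possible). The gene fit (lmFit and eBayes of limma 3.58.1, R 4.3.3, two-sided, on treatment alone) used Benjamini-Hochberg adjustment over 18239 genes at 0.05, after a test on simulated data. Named are all members that passed, the 2 highest and 2 lowest others per subunit name, MRPS18A, MRPS30 and MRPS36 (not analysed here), and comparison genes that passed; others were chosen after their values were seen. Members and lists were chosen with earlier results of these data known. Alternatives covered the replicate block, probe set summary and choice, centring, variance prior, weights, thresholds and arrays left out.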

Additional observations from a re-analysis of the deposited data

How the results depend on the processing

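MRPL, MRPS, comparison-list and all-gene calls numbered 1, 6, 13 and 1854. No setting reversed a gene refitted under it, but many could not have. The replicate block, the variance prior, the lack of moderation and the thresholds leave the log2 change as it was. Where the groups did not overlap, leaving out arrays cannot reverse it either. Refitted were the genes of the naming rule, not those named for other reasons, and MRPL45 and TFB2M had no value without marked probe sets. Without moderation the calls were 0, 2, 7 and 560 (17 MRPL genes at an unadjusted p under 0.05), and at adjusted p under 0.01 0, 0, 3 and 642 (14 MRPL and 10 MRPS genes at an unadjusted p under 0.05). The fits that each lack 1 array gave 0 to 1, 2 to 3, 7 to 10 and 1063 to 1309 calls. Without urolithin A replicate 3 and untreated replicate 1, which had the highest HLA-DRA of their groups, limma called 1, 0, 3 and 705 (6 MRPS genes at an unadjusted p under 0.05). Without replicate 3 of both groups, lowest in 18S ribosomal RNA, it called 1, 0, 4 and 841 (7 MRPS genes at an unadjusted p under 0.05). These last 2 settings were added after seeing the data, and they leave fewer arrays. A trended and robust prior gave 3 MRPS calls and the probe set median 2 MRPL calls. Adding MRPS18A and MRPS30 to the MRPL genes gave 3 calls, all lower. The cause of the other shifts was not tested. Replicate numbers are not said to pair arrays, and deviations of same-numbered arrays correlated at 0.078, 0.023 and 0.196. With the replicate block 1 MRPL, 4 MRPS and 1863 genes in all passed.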

Other observations

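Some members share a promoter region with a gene read the other way. Within 1000 bases upstream, 20 of the 68 members with a listed start had such a neighbour on the array. Of these 20 neighbours 2 passed, a share near the 10.2% of all genes, and both were higher: HELQ, a DNA helicase gene next to MRPS18C, which rose by 0.34 in log2 terms (SE 0.08, adjusted p = 0.0362), and PPP1R10, which encodes a phosphatase regulator, next to MRPS18B, at 0.31 (SE 0.08, adjusted p = 0.0414). Neither of the 2 members beside them passed, at 0.13 and 0.05. MRPS12 and SARS2, the gene for the mitochondrial serine tRNA synthetase, start 181 bases apart in opposite directions. MRPS12 fell by 0.39, while SARS2 had a log2 change of 0.08 (adjusted p = 0.637), and their difference was not tested. MRPL30 starts 126 bases from MITD1, which had a log2 change of -0.17 (adjusted p = 0.446). MRPL46 and MRPS11, both members, start 320 bases apart and had changes of -0.10 and -0.09. The value of MRPS11 averages probe sets that ran from -0.79 to 0.52. Of the 20 members with a neighbour, 12 changed in the same direction as it and 8 in the opposite one.

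Of the 5 probe sets listed with a member and another gene, none passed over all probe sets, and 2 had an unadjusted p under 0.05. These were the one listed with MRPL45 and its pseudogene MRPL45P2, at a log2 change of 0.30 (adjusted p = 0.108), and the one listed with MRPS17 and ZNF713, at -0.27 (adjusted p = 0.118).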
